A study of Mus musculus with 12 samples.

Results

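The genes described here are 10 genes of the elastic fibre and its cross-linking, chosen by symbol from 48795 genes in the deposited tables: Eln, Fbn1, Fbn2, Fbln5, Efemp2, Emilin1, Mfap2, Mfap5, Lox and Loxl1. The choice was by symbol, made with earlier results of these data known. Of these genes, 9 had enough counts to be tested, among 14704 genes tested in all, and Mfap2 had 0 counts in every library.

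An elastic fibre has a core of cross-linked elastin on a scaffold of microfibrils. Fibrillins polymerise into the microfibrils, fibulins and microfibril-associated proteins help to place the soluble precursor tropoelastin on them, and copper-dependent lysyl oxidases oxidise its lysines so that the chains join. Fibroblasts and smooth muscle cells secrete these proteins, and lysyl oxidases also cross-link fibrillar collagen.

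The cells were NIH3T3, an immortalised mouse embryo fibroblast line, and the assay was RNA-seq of ribosome-depleted total RNA. F5, G5 and H7 are clones of that line with the genotype AEBP1 KO, each a single clone and each measured in 3 libraries, at passages 7, 8 and 9. They were set against the line labelled Parental, which carries the wild-type genotype and was measured at passages 6, 7 and 8, so that 9 clone libraries stood against 3 parental libraries. All 12 libraries came from the same medium with fetal serum, with no treatment in the labels. Every clone differed from the parental line both in its AEBP1 genotype and in having been through cloning, so the effects of these cannot be told apart. Aebp1 encodes a secreted protein that binds collagen. Whether the passages were cultured separately is not in the labels, so a p-value here measures the spread between these libraries, which may be technical. Fewer cells of a kind and less RNA per cell cannot be told apart in such bulk samples.

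Library totals lay between 22088695 and 31329735 counts. The targeted gene Aebp1 averaged 100.4 ± 8.69 TPM in F5, 66.1 ± 3.82 in G5 and 76.8 ± 7.89 in H7, against 288 ± 34.2 in the parental line (SD, n = 3 each; TPM is a level corrected for gene length and library size). It fell by 1.84 on the log2 scale in the mean of the clones (SE 0.09, adjusted p = 1.69e-06, edgeR). Its RNA was thus lowered but still counted in the clones, with 16092 counts over the libraries of F5, 9726 in G5 and 11415 in H7. All 8 fibroblast markers had at least 1 TPM in every library, and their summed level ran from 6566 to 9376 TPM in the clones and from 8536 to 9211 TPM in the parental line. Of these, 3 fell in the mean of the clones (Col1a1, Col3a1 and Pdgfrb) and 0 rose, where 10.5% and 8.55% of all genes tested did. Col1a1 and Col3a1 were called lower in F5 and G5, and Pdgfrb in no single clone. In H7, 0 of the 8 were called lower, and S100a4 was called higher (0.49 on the log2 scale, adjusted p = 0.0148, edgeR). The summed level of 5 smooth-muscle markers ran from 518 to 736 TPM in the clones, against 392 to 436 TPM in the parental line. Most of it was Acta2, at 594 TPM in F5, 656 in G5 and 540 in H7, against 328 in the parental line. Smtn averaged 59.1, 66.8 and 64.4 TPM in these clones, against 81.1 in the parental line (log2 fold change −0.38, adjusted p = 0.105, edgeR). Des had 139 counts over all libraries and Cnn1 had 406. Of 4 smooth-muscle markers tested, 2 rose (Acta2 and Des) and 1 fell (Cnn1) in the mean of the clones, beside 8.55% and 10.5% of all genes tested. Acta2 was called in each clone, Des not in F5 (adjusted p = 0.117, edgeR) and Cnn1 not in H7 (adjusted p = 0.0832, edgeR). Myh11, which defines mature smooth muscle, averaged at most 0.0388 TPM in any line. Epithelial, endothelial and leukocyte markers summed to at most 0.449, 0.885 and 8.56 TPM in the clones and 0.352, 0.317 and 7.25 TPM in the parental line, with Epcam and Kdr at 0 in every library. The part of these markers in the results below was not tested.

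The middle passage of each line, passage 8 of a clone and passage 7 of the parental line, stood apart. Against the first and the third passages it was called higher for 16.5% of all genes tested and lower for 15.6%. Each call of an elastic fibre gene against the parental line that was lost without these 4 libraries is therefore given with its value.

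Of the genes named above, 5 have a promoter window in the RefSeq table for GRCm38.p6. The windows of Fbln5, Efemp2 and Emilin1 are shown because these genes were called lower in the mean of the clones. For Fbln5 many alternatives did not give that call. The window of Fbn1 is shown because that gene was not called. Each is 300 bases long, written in the direction of the gene, and capitals mark the GC box GGGCGG on either strand. They lie at chr12:101819070-101819369 on the minus strand (Fbln5), chr19:5473696-5473995 on the plus strand (Efemp2), chr5:30913536-30913835 on the plus strand (Emilin1) and chr2:125506389-125506688 on the minus strand (Fbn1).
Fbln5: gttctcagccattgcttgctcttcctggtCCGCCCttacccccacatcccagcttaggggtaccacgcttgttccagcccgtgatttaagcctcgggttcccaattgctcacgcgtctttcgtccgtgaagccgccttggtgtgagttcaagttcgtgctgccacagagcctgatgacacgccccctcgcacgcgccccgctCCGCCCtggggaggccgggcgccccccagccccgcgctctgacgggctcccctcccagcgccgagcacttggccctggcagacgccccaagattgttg
Efemp2: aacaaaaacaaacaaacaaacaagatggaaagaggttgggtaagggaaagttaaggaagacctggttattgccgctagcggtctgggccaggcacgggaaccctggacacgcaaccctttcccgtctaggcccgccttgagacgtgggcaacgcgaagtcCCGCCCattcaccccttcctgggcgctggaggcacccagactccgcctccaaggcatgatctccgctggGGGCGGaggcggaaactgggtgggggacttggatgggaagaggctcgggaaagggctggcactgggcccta
Emilin1: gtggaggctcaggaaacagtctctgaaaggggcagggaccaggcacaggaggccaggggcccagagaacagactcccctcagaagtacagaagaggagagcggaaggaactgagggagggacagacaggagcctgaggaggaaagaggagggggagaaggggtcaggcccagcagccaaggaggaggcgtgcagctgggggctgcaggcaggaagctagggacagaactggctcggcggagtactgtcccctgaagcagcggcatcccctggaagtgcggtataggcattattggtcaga
Fbn1: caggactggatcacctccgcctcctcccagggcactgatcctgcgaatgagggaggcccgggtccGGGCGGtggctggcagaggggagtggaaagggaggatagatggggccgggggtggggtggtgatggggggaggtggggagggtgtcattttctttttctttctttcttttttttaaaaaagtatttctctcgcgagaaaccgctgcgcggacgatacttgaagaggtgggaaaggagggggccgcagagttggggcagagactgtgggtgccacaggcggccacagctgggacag
The GC box occurs at 2 places in the window of Fbln5, at 2 in that of Efemp2, at 0 in that of Emilin1 and at 1 in that of Fbn1. It occurs in 35.7% of the 32851 windows in the table, and 2 of the 3 genes shown that fell hold it. The letters TATAAA, searched on both strands, are in none of these 4 windows and in 13.6% of all windows. The windows hold 65.7%, 60.3%, 61.7% and 60.3% G and C in the order shown, against a median of 52.7% over all windows. The starts of RefSeq and of the gene models used for the counts need not be the same. By the GENCODE M21 positions given below, the windows of Emilin1 and Fbn1 lie wholly inside their genes. Emilin1 starts at 30913402 on the plus strand, and Fbn1 at 125507993 on the minus strand. These windows thus do not hold the gene start of that annotation. A match of letters is not a binding site.

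The levels differed widely between the genes. By mean TPM over the 12 libraries the order was Lox (1458 TPM), Efemp2 (209), Loxl1 (170.4), Fbln5 (85.4), Fbn1 (59.7), Emilin1 (50.4), Mfap5 (11.3), Fbn2 (0.937) and Eln (0.736). Lox stood apart from all the others, with a lowest level of 1101 TPM and a rank between 29 and 88 among all genes of a library. Efemp2 and Loxl1 overlapped each other in range, as did Fbln5, Fbn1 and Emilin1, and as did Fbn2 and Eln. Transcripts of the cross-linking enzymes were thus far more abundant than those of elastin in every library, on the TPM scale.

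**Figure D1:**
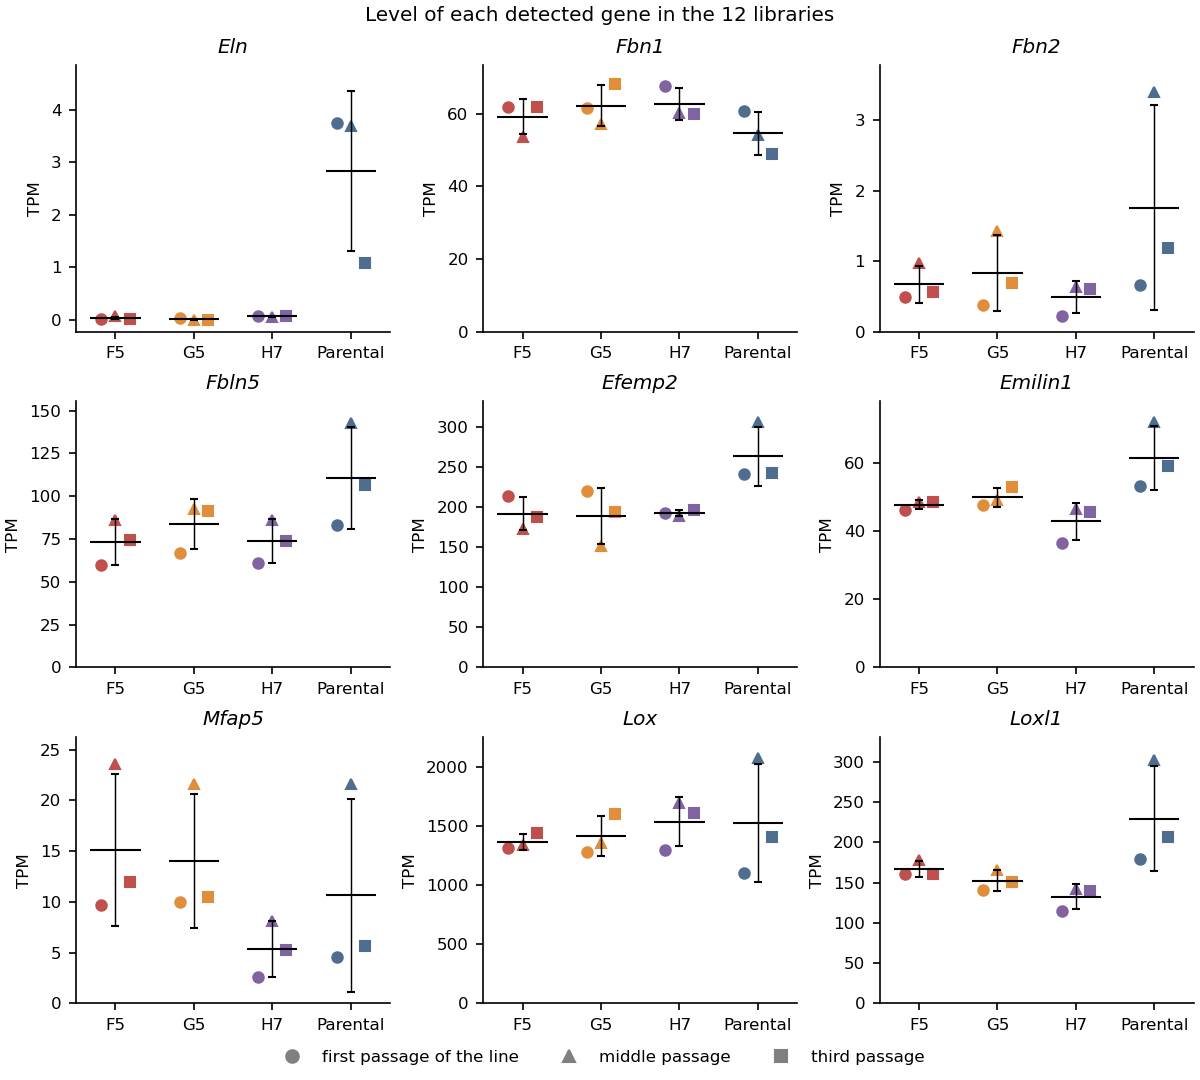
Level in TPM of the 9 detected genes in each library of clones F5, G5 and H7 and of the parental line, with each vertical axis linear and scaled to its gene. Circles, triangles and squares are the first, the middle and the third passages of a line, and the black bars are the mean and SD of 3 libraries. Eln reaches 3.74 TPM in the parental line and at most 0.077 TPM in the clones, and Efemp2, Emilin1 and Loxl1 lie below every parental library in all 9 clone libraries.

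In the mean of the clones set against Parental, 5 of the 9 genes tested fell and 0 rose: Eln, Fbln5, Efemp2, Emilin1 and Loxl1. Over all genes tested, edgeR's quasi-likelihood test called 10.5% lower and 8.55% higher. No elastic fibre gene was higher at an unadjusted p under 0.05 either, and DESeq2 called 0 higher and 6 lower, with Fbn2 as the sixth. The median log2 fold change of the 9 genes was −0.48, beside −0.02 over all genes tested. For 4 genes (Eln, Efemp2, Emilin1 and Loxl1) all 9 clone libraries lay below all 3 parental libraries in CPM (counts scaled to library size), as they did for 5.16% of all genes tested.

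**Figure D2:**
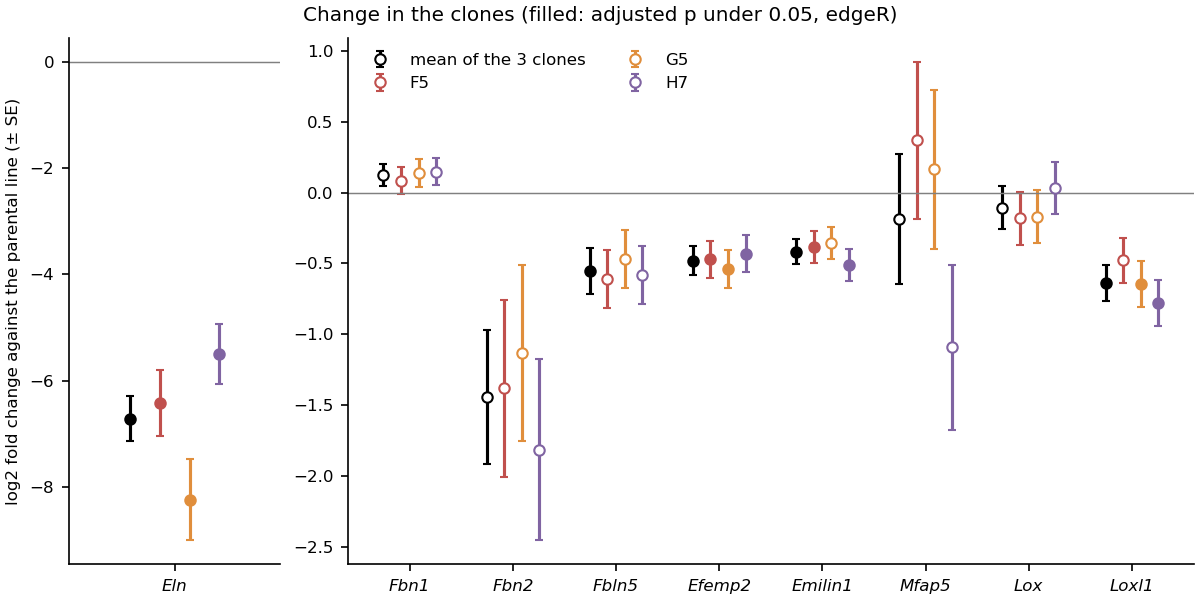
Log2 fold change against the parental line, with its SE, for the mean of the 3 clones and for each clone, in the edgeR fit of 12 libraries. Filled points have an adjusted p under 0.05 over all genes tested, and Eln has an axis of its own. Eln lies between −8.24 and −5.50 in the single clones, while the other called changes lie between −0.78 and −0.38.

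Elastin transcripts were nearly absent from the clones. Eln (ENSMUSG00000029675, chr5:134702593-134747323, minus strand, GRCm38) encodes tropoelastin. It was listed at 0.0181, 0.0648 and 0.0228 TPM in F5, at 0.0251, 0 and 0 TPM in G5 and at 0.077, 0.0516 and 0.072 TPM in H7, against 3.74, 3.68 and 1.08 TPM in the parental line. Every clone library lay at least an order of magnitude below every parental library, and passages are given from low to high here and below. These levels rest on 5 counts summed over the 3 libraries of F5, 1 in G5 and 9 in H7, against 387 in the parental line. A count of 0 in the G5 libraries of passages 8 and 9 allows up to 0.136 and 0.12 CPM (3 counts). By summed counts scaled to library size, Eln was 92.2-fold lower in F5 (95% counting interval 39.2 to 285), 414-fold lower in G5 (73.9 to 16408) and 47.4-fold lower in H7 (24.7 to 104.5). These intervals and limits cover counting error only.

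Eln had a fitted log2 fold change of −6.41 in clone F5 (SE 0.62, adjusted p = 0.000141), of −8.24 in clone G5 (SE 0.76, adjusted p = 9.18e-05) and of −5.50 in clone H7 (SE 0.57, adjusted p = 0.000107). With so few counts the fitted size depended on the scale: limma on log2(TPM + 1), which understates the change of low genes, gave −1.79 in F5, −1.83 in G5 and −1.75 in H7, each with a call. Over 23 alternatives the mean of the clones ran from −7.33 to −1.79, and the call was lost in 1 of them, with counts summed per line (adjusted p = 0.163). Without the 4 middle passages the mean of the clones stood at −6.52 (adjusted p = 0.000635), against −6.71 with them (SE 0.42, adjusted p = 7.05e-06). The parental line itself was not steady: its library of passage 8 had 46 counts of Eln, against 162 and 179 at passages 6 and 7. The predicted gene Gm30003, which overlaps Eln, had 0 counts.

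The neighbours of Eln did not share its loss. Of 22 other genes tested within 500 kb of its start, 2 were called lower in the mean of the clones, Clip2, a microtubule-binding linker (log2 fold change −0.39, adjusted p = 0.00361), and Stx1a, a syntaxin of membrane fusion (−0.41, adjusted p = 0.0245). Starts here are the lowest coordinates of genes, which for Eln, on the minus strand, is where transcription ends. The nearest by this measure, Limk1, a kinase that acts on cofilin, stood 46.6 kb away with a log2 fold change of 0.01 (SE 0.18). Eif4h, a translation initiation factor 82.9 kb away, had one of 0.04 (SE 0.07). The 22 genes had a median of −0.12 and ranged from −1.12 to 0.10. The single value far above 0 in a clone was that of Syna in H7, at 1.42 (adjusted p = 0.024), a gene at 0.283 CPM on average in the clones and 0.242 CPM in the parental line. All 22 were picked by their place alone.

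**Figure D3:**
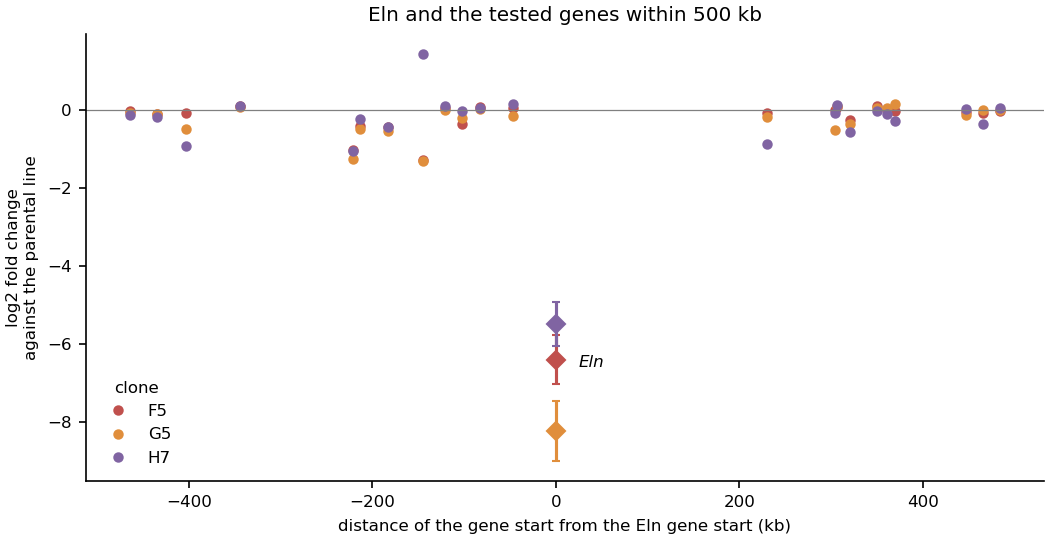
Log2 fold change against the parental line in clones F5, G5 and H7 for Eln (diamonds, with SE) and for the 22 genes tested within 500 kb (circles), by the distance of gene starts (lowest coordinates) in kb. The mean changes of the neighbours run from −1.12 to 0.10, while Eln lies between −8.24 and −5.50.

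The microfibril genes behaved otherwise. Fbn1 (ENSMUSG00000027204, chr2:125300594-125507993, minus strand) encodes fibrillin-1, the main fibrillin of postnatal tissue. Its levels were 62.0, 53.6 and 61.9 TPM in F5, 61.5, 57.1 and 68.2 TPM in G5 and 67.7, 60.2 and 59.9 TPM in H7, against 60.8, 54.0 and 48.9 TPM in the parental line. The groups overlapped, and the clones stood slightly above in the mean, with a log2 fold change of 0.12 (95% interval −0.05 to 0.30, adjusted p = 0.314). It was the only one of the 9 genes with a positive value in that comparison. Under 23 alternatives the value stayed between 0.05 and 0.21, with a call in 0 of them. The overlapping Gm9913 had 643 counts over all libraries, against 19660 to 24686 counts of Fbn1 in a line.

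Fbn2 (ENSMUSG00000024598, chr18:58008623-58210487, minus strand), the fibrillin of embryonic tissue, was a rare transcript. It had 0.486, 0.974 and 0.563 TPM in F5, 0.382, 1.42 and 0.686 TPM in G5 and 0.224, 0.639 and 0.604 TPM in H7, against 0.667, 3.41 and 1.19 TPM in the parental line. In each line the middle passage was the highest, and each clone library lay below the parental library at the same place in the order of passages. Of the 9, 6 lay below the lowest parental library. The log2 fold change in the mean of the clones was −1.44 (SE 0.47, adjusted p = 0.0545), which is no call. A call was made in 6 of 23 alternatives, among them DESeq2 (adjusted p = 0.0194). It stood at −0.56 without parental passage 7 (adjusted p = 0.462) and at −0.98 without the 4 middle passages (adjusted p = 0.113). As a share of Fbn1, Fbn2 took between 0.33% and 2.49% in the clones and between 1.1% and 6.31% in the parental line.

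Mfap5 and Mfap2 encode the small microfibril-associated glycoproteins that bind fibrillin. Mfap5 (ENSMUSG00000030116, chr6:122505845-122529290, plus strand) had 9.73, 23.6 and 11.97 TPM in F5, 9.96, 21.6 and 10.5 TPM in G5 and 2.62, 8.13 and 5.29 TPM in H7, against 4.61, 21.6 and 5.69 TPM in the parental line. The middle passage was again the highest in each line, and H7 was low beside the other clones at every passage. The log2 fold change against the parental line was 0.37 in F5 (SE 0.56), 0.16 in G5 (SE 0.56) and −1.09 in H7 (SE 0.58), with adjusted p of 0.717, 0.893 and 0.228. The mean of the clones stood at −0.19, with a 95% interval from −1.19 to 0.82, and at 0.68 without parental passage 7 (adjusted p = 0.344). On chromosome 6, the median over 782 genes tested was −0.22 in H7, 0.07 in F5 and 0.09 in G5, and the part of that shift in the H7 value was not tested.

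Mfap2 (ENSMUSG00000060572, chr4:141010418-141015984, plus strand) was listed at 0 counts in all 12 libraries. No source used here says whether the authors' counting could assign reads to it; if it could, 0 of 307574334 counts allows up to 0.00976 CPM. Its neighbours were counted: Atp13a2 had 4434 counts, Crocc 3035 and Sdhb 11522 over all libraries.

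Transcripts of the proteins that place elastin on the scaffold were moderately lower in the mean of the clones, with a call for Fbln5 that many alternatives did not give. Efemp2 (ENSMUSG00000024909, chr19:5473954-5482517, plus strand) encodes fibulin-4, which binds tropoelastin and lysyl oxidase. It had 214, 173 and 188 TPM in F5, 220.4, 152 and 195 TPM in G5 and 192, 189 and 197 TPM in H7, against 242, 306 and 243 TPM in the parental line. No clone library reached the lowest parental one. The level in the mean of the clones fell to 71.7% of the parental level, −0.48 on the log2 scale (SE 0.10, adjusted p = 0.00887). Without the 4 middle passages it was −0.31 (adjusted p = 0.0384). The parental line was highest, and F5 and G5 lowest, at the middle passage. Mus81 overlaps Efemp2 and had 4767 counts over all libraries, against 11772 to 15833 counts of Efemp2 in a line, and no source used here gives the use of strand in counting.

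Fbln5 (ENSMUSG00000021186, chr12:101746565-101819055, minus strand) encodes fibulin-5, a tropoelastin-binding protein of the microfibril surface. It had 59.7, 86.3 and 74.2 TPM in F5, 66.9, 92.6 and 91.4 TPM in G5 and 60.8, 86.3 and 74.0 TPM in H7, against 83.2, 143 and 107 TPM in the parental line. Each clone library lay below the parental library at the same place in the order of passages, while 4 of 9 lay above the lowest parental one. The log2 fold change in the mean of the clones was −0.55 (SE 0.16, adjusted p = 0.0357). With place in the order of passages as a term, edgeR called Fbln5 lower in F5 (adjusted p = 4.48e-05), G5 (0.000285) and H7 (4.24e-05). Without that term it called Fbln5 in no single clone. The call in the mean of the clones was kept in 10 of 23 alternatives and lost in 13. It was lost without parental passage 7 (−0.35, adjusted p = 0.18) or 8 (−0.57, adjusted p = 0.0819). It was also lost without passage 7 or 9 of F5, G5 or H7, at −0.50 to −0.56 with adjusted p between 0.0535 and 0.06, and without the 4 middle passages (−0.47, adjusted p = 0.0632).

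Emilin1 (ENSMUSG00000029163, chr5:30913402-30921277, plus strand) encodes a glycoprotein found where elastin meets the microfibrils. It had 46.1, 48.4 and 48.5 TPM in F5, 47.7, 49.0 and 52.9 TPM in G5 and 36.5, 46.3 and 45.6 TPM in H7, against 53.3, 71.9 and 59.0 TPM in the parental line. The groups did not overlap, though the gap between the highest clone library and the lowest parental one was narrow. Its fall was 0.42 on the log2 scale (SE 0.09, adjusted p = 0.00847), and the value was −0.32 without the 4 middle passages (adjusted p = 0.0507).

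Of the lysyl oxidases, which oxidise the lysines that become cross-links, Loxl1 fell and Lox did not pass the test. Lox (ENSMUSG00000024529, chr18:52516067-52529867, minus strand) had 1310.2, 1335 and 1443 TPM in F5, 1282, 1357 and 1599 TPM in G5 and 1299, 1694 and 1609 TPM in H7, against 1101, 2070.1 and 1402 TPM in the parental line. All clone libraries lay within the parental range. The log2 fold change was −0.11 in the mean of the clones, with a 95% interval from −0.44 to 0.22 (adjusted p = 0.67), and 0.15 without parental passage 7 (adjusted p = 0.424). On chromosome 18, the median over 395 genes tested was 0.25 in H7 on the log2 scale, where Lox stood at 0.03. In F5 and G5 that median was −0.05 and −0.09, and its part in the values of Lox was not tested.

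Loxl1 (ENSMUSG00000032334, chr9:58287738-58313186, minus strand) encodes the lysyl oxidase that mice need to keep their elastic fibres after birth. It had 161, 178 and 161 TPM in F5, 141, 166 and 151 TPM in G5 and 115, 143 and 140.2 TPM in H7, against 179.6, 303 and 206 TPM in the parental line. All clone libraries lay below all parental ones, by a narrow margin for F5 at passage 8. In the mean of the clones Loxl1 fell to 64.4% of the parental level, −0.64 on the log2 scale (SE 0.13, adjusted p = 0.00578). Without parental passage 7 it was −0.41 (adjusted p = 0.0194), and without the 4 middle passages it was −0.47 (adjusted p = 0.0121).

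The ratio of Lox to Loxl1, which does not depend on the scaling of a library, was 8.14, 7.48 and 8.97 in F5, 9.1, 8.18 and 10.6 in G5 and 11.3, 11.9 and 11.5 in H7, against 6.13, 6.83 and 6.79 in the parental line. All 9 clone libraries lay above all parental libraries, with H7 the highest of the clones. The ratio uses the same Loxl1 values as above, where Loxl1 separated the groups and Lox did not. How often other pairs of genes separate so was not counted. Of the summed TPM of the 5 enzymes of the family, Lox made up 85.6% ± 0.87 in F5, 87.0% ± 1.41 in G5 and 89.3% ± 0.91 in H7, against 82.9% ± 2.28 in the parental line (SD, n = 3 each). Loxl1 made up 10.5% ± 0.88, 9.47% ± 1.1 and 7.74% ± 0.13, against 12.6% ± 0.49. The sum itself overlapped between the groups, at 1471 to 1880 TPM in the clones and 1366 to 2430 TPM in the parental line.

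**Figure D4:**
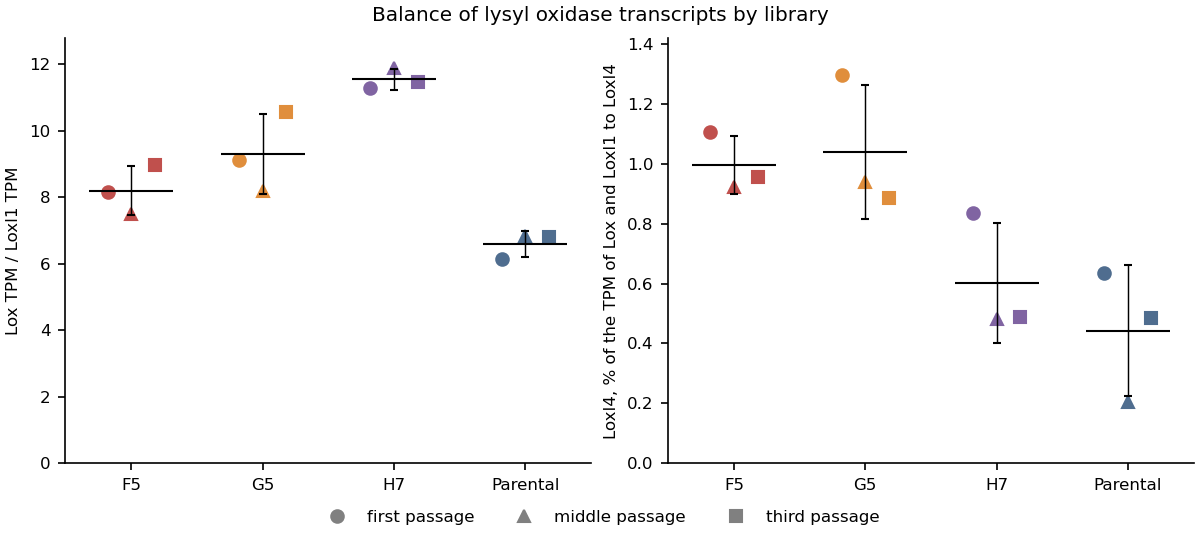
Left, the ratio of Lox to Loxl1 in TPM in each library of clones F5, G5 and H7 and of the parental line. Right, Loxl4 as a percentage of the summed TPM of Lox and Loxl1 to Loxl4, with circles, triangles and squares for the first, the middle and the third passages and black bars for the mean and SD of 3 libraries. The ratio lies between 7.48 and 11.9 in the clones and between 6.13 and 6.83 in the parental line, and the Loxl4 share averages 0.994% in F5, 1.04% in G5, 0.602% in H7 and 0.442% in the parental line.

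Each clone was then read by itself against the same 3 parental libraries, which the clones share. In F5 Eln, Efemp2 and Emilin1 were called lower (3 of 9), where 7.37% of all genes tested were. In G5 Eln, Efemp2 and Loxl1 were (3 of 9), where 6.56% of all genes were. In H7 Eln, Efemp2, Emilin1 and Loxl1 were (4 of 9), where 9.92% of all genes were. Only Eln and Efemp2 were called lower in all 3 clones, as were 2.14% of all genes tested. For Efemp2 the change was −0.47 on the log2 scale in F5 (SE 0.13, adjusted p = 0.0352), −0.54 in G5 (SE 0.13, adjusted p = 0.0211) and −0.43 in H7 (SE 0.13, adjusted p = 0.0393). Without the 4 middle passages it was called in none of the clones, with F5 at −0.30 (adjusted p = 0.0965), G5 at −0.32 (adjusted p = 0.0833) and H7 at −0.31 (adjusted p = 0.0701). That of Loxl1 was −0.48 in F5 (SE 0.16, adjusted p = 0.0718), −0.65 in G5 (SE 0.16, adjusted p = 0.0237) and −0.78 in H7 (SE 0.16, adjusted p = 0.00638). Emilin1 stood at −0.38 in F5 (SE 0.11, adjusted p = 0.0427), at −0.36 in G5 (SE 0.11, adjusted p = 0.0607) and at −0.51 in H7 (SE 0.11, adjusted p = 0.00868). Without the middle passages its call in F5 was lost too (−0.28, adjusted p = 0.159).

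The calls of single clones near the threshold rested on single libraries. The call of Efemp2 in F5 was lost without passage 7 or 8 of the parental line, passage 8 or 9 of F5, passage 9 of G5 or passage 7 or 9 of H7, with log2 fold changes between −0.51 and −0.37 and adjusted p between 0.0511 and 0.119. In G5 it was lost without passage 7 of the parental line or passage 8 or 9 of G5 (−0.53 to −0.43, adjusted p 0.0537 to 0.0701). In H7 it was lost without passage 7 or 8 of the parental line, passage 9 of F5 or G5, or any passage of H7 (−0.47 to −0.33, adjusted p 0.0557 to 0.117). The call of Emilin1 in F5 was lost without passage 7 or 8 of the parental line, any passage of F5, passage 7 or 9 of G5 or passage 9 of H7 (−0.41 to −0.27, adjusted p 0.0561 to 0.135). That of Loxl1 in G5 was lost without passage 7 or 9 of G5 (−0.59 and −0.61, adjusted p = 0.0929 and 0.0834). Eln kept its call in each clone without any 1 library, as did Emilin1 and Loxl1 in H7. With only the libraries of the 2 groups compared, however, both lost the call in H7, Emilin1 at −0.50 (adjusted p = 0.0713) and Loxl1 at −0.77 (adjusted p = 0.0501). In that setting Eln alone kept its call in F5 and G5, and Eln and Efemp2 kept theirs in H7.

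Between clones, edgeR called 0 of the 9 genes for F5 against G5, F5 against H7 and G5 against H7. Over all genes tested 0.258%, 17.9% and 17.4% were called in these comparisons. At an unadjusted p under 0.05 there were 0, 1 and 0 genes, and DESeq2 called 0, 1 and 0. Mfap5 was the gene concerned, at 1.46 on the log2 scale in F5 against H7 (95% interval 0.19 to 2.73, adjusted p = 0.111 in edgeR). The difference in Loxl1 between F5 and H7 was 0.30, with a 95% interval from −0.05 to 0.66. For Eln the interval of G5 against H7 ran from −5.49 to 0.01, so that a wide range of differences between these clones could not be told at this depth.

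Several of the genes differed between passages of a line. The middle passage was compared with the mean of the first and the third passages, with line as a term. Of the 9 genes 4 were higher at the middle passage and 0 lower, where 16.5% and 15.6% of all genes tested were called. At an unadjusted p under 0.05, 5 were higher and 1, Fbn1, was lower, and DESeq2 called 4 higher and 0 lower. Fbn2 rose by 1.31 (SE 0.19, adjusted p = 0.0012) and Mfap5 by 1.29 (SE 0.12, adjusted p = 0.00021) on the log2 scale. Fbln5 rose by 0.39 (SE 0.04, adjusted p = 0.000327) and Loxl1 by 0.29 (SE 0.08, adjusted p = 0.0159). Fbn2, Fbln5 and Mfap5 were highest at the middle passage in all 4 lines, as 13.2% of all genes tested were. Eln stood at 0.78 (SE 0.28, adjusted p = 0.0576), the nearest to a call of the other 5. That value rests on the parental line, where Eln had 7.25, 7.07 and 2.02 CPM from the first to the third passage. Its middle passage was thus not the highest there, and the clones held 0 to 3 counts of Eln a library. Lox stood at 0.21 (SE 0.10, adjusted p = 0.134), Emilin1 at 0.13 (SE 0.06, adjusted p = 0.116), Efemp2 at −0.09 (SE 0.09, adjusted p = 0.488) and Fbn1 at −0.13 (SE 0.06, adjusted p = 0.111).

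**Figure D5:**
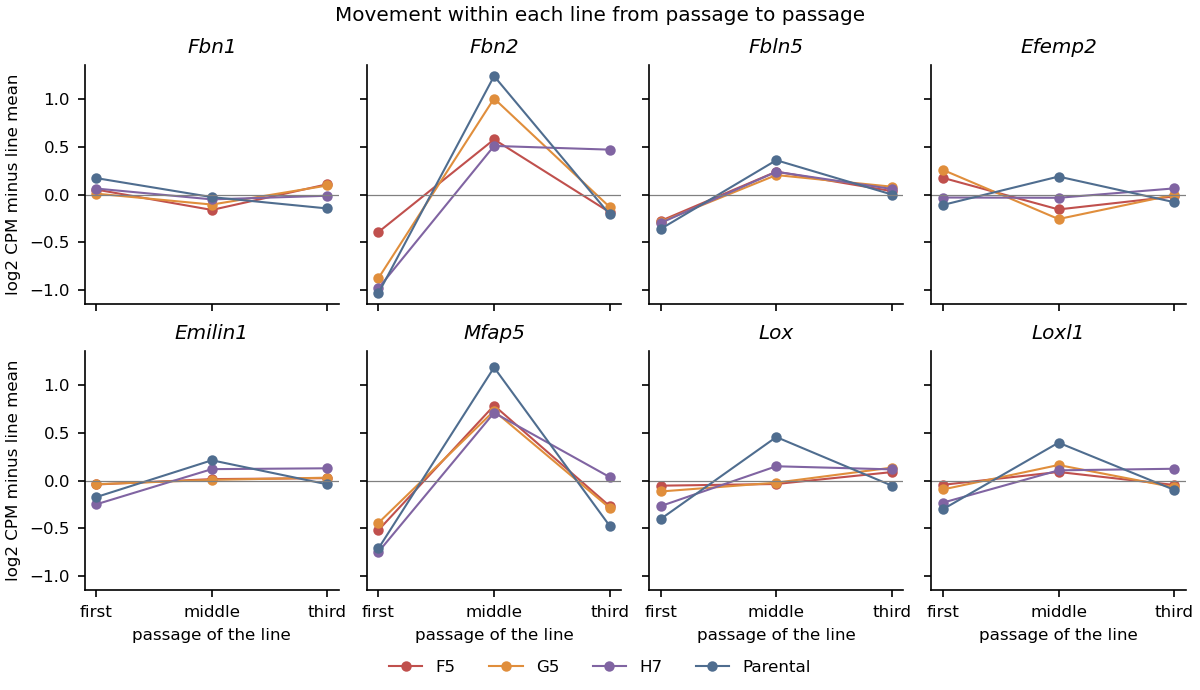
Log2 CPM of 8 genes minus the mean of the same line, at the first, the middle and the third passages of clones F5, G5 and H7 and of the parental line. Fbn2, Fbln5 and Mfap5 peak at the middle passage in all 4 lines, with fitted rises of 1.31, 0.39 and 1.29. Efemp2 is highest there in the parental line and lowest there in F5 and G5, with H7 nearly tied with its first passage.

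Against the first passages, Fbln5 was the only one of the 9 genes called at the third passages, higher by 0.35 on the log2 scale (SE 0.05, adjusted p = 0.0109), where 1.12% of all genes tested were called in either direction. Eln stood at −1.59 in that comparison (SE 0.36, adjusted p = 0.0626), a value that rests on the parental line, since the clones held 0 to 3 counts a library. Within a line, the SD of log2 CPM was 0.90 for Fbn2 and 0.79 for Mfap5, above 98.0% and 97.1% of all genes tested. It was 0.12 for Fbn1 and 0.18 for Efemp2, where the median gene had 0.18.

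With the mean of each line removed, Fbn2 had a correlation over the 12 libraries of 0.94 with Fbln5, 0.94 with Mfap5 and 0.95 with Loxl1. These 4 genes are those called higher at the middle passage, so the values restate that rise. Emilin1 had a correlation of 0.93 with Lox, and neither was called there. Fbn1 ran against them, at −0.61 with Fbn2 and −0.60 with Fbln5. Efemp2, which was lower in all 3 clones, kept apart, at −0.18 with Fbn2. Eln, lower in all 3 clones too, stood at 0.04 with Fbn2. With 0 to 3 counts of Eln a clone library, that value cannot show whether Eln moved with Fbn2. These are descriptions over libraries that share lines, passages and scaling.

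The rest of the pathway was read from 6 lists with 47 genes, of which 33 were tested. In the mean of the clones 3 of the 33 rose and 5 fell, where 8.55% and 10.5% of all genes tested did, with a median log2 fold change of 0.09 beside −0.02 over all genes. The lists were drawn up with results of these data known, and so give no independent support.

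Among other lysyl oxidases and the proteins that activate or load the enzymes, 1 of 11 rose and 3 fell, with a median of −0.10. Bmp1, the protease that cuts lysyl oxidase out of its proenzyme, had 24.8 TPM in F5, 25.5 in G5 and 16.9 in H7, against 33.2 TPM in the parental line, and fell by 0.62 (SE 0.11, adjusted p = 0.00305). Without parental passage 7 that value was −0.40. Clone by clone, edgeR called Bmp1 in H7 (−0.97, adjusted p = 0.000784). It was not called in F5 or G5 (−0.44 in each, adjusted p = 0.0574 and 0.0606, edgeR). Postn, a matrix protein that brings Bmp1 to its targets, had 31.1 TPM in F5, 14.1 in G5 and 28.8 in H7, against 89.3 TPM in the parental line, and fell by 1.94 (SE 0.47, adjusted p = 0.015). It stood at −1.01 without parental passage 7 (adjusted p = 0.153) and at −0.78 without the 4 middle passages (adjusted p = 0.26). In single clones edgeR called Postn in G5 (−2.69, adjusted p = 0.0224), and not in F5 (−1.52, adjusted p = 0.136) or H7 (−1.61, adjusted p = 0.102). Loxl4 rose by 0.90 (SE 0.17, adjusted p = 0.00433), though it made up at most 1.3% of the TPM of the family. It was called in F5 (1.09, adjusted p = 0.00482) and G5 (1.14, adjusted p = 0.00395) and not in H7 (0.47, adjusted p = 0.126). Loxl3, named after its values were seen, fell by 0.75 (SE 0.19, adjusted p = 0.0184), and stood at −0.63 and −0.66 with no call without parental passage 6 or 8 (adjusted p = 0.073 and 0.0757). Among the clones edgeR called Loxl3 in G5 and H7 (adjusted p = 0.0393 and 0.0394), and not in F5 (adjusted p = 0.127). Copper carriers that load the enzymes, Atp7a, Atox1 and Slc31a1, stood at −0.10, 0.25 and −0.09, with adjusted p of at least 0.314.

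Of 5 relatives of the fibulins, emilins and microfibril proteins, 1 fell. Emilin2 stood at −0.48 on the log2 scale (SE 0.13, adjusted p = 0.0276), beside −0.42 for Emilin1, and at −0.26 without parental passage 7 (adjusted p = 0.148) and −0.44 without G5 passage 7 (adjusted p = 0.0516). Without the 4 middle passages it was −0.32 (adjusted p = 0.095). No single clone had a call of Emilin2 in edgeR (adjusted p = 0.0832 in F5, 0.0859 in G5 and 0.0616 in H7). Efemp1, which encodes fibulin-3, stood at 0.10 (SE 0.19, adjusted p = 0.761). Of 4 latent TGF-beta binding proteins, which share the domain structure of fibrillins, 1 fell. Ltbp4, a partner of fibulin-5, had 22.5 TPM in F5, 24.0 in G5 and 3.46 in H7, against 19.4 TPM in the parental line. Its fall of 0.67 in the mean (SE 0.11, adjusted p = 0.0019) stood beside −2.49 in H7 alone (adjusted p = 2.5e-06), with 0.19 in F5 and 0.28 in G5 (adjusted p = 0.397 and 0.211). With the 9 clone libraries as 1 group it was −0.24 (adjusted p = 0.855).

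Of 5 fibrillin-binding ADAMTS and ADAMTS-like proteins tested, which take part in microfibril assembly, 2 rose, and the median of the 5 was 0.83. Adamtsl5 had 25.9 TPM in F5, 24.1 in G5 and 14.9 in H7, against 10.9 TPM in the parental line, a rise of 0.83 (SE 0.11, adjusted p = 0.000666). It was called in F5 and G5 (1.15 and 1.01, adjusted p = 0.000405 and 0.000787, edgeR), and not in H7 (0.34, adjusted p = 0.0968, edgeR). Adamtsl4 rose by 0.48 (SE 0.13, adjusted p = 0.0221), without a call when parental passage 6 or 8 was left out (0.32 and 0.49, adjusted p = 0.0652 and 0.0622), and stood at 0.71 without the 4 middle passages. Clone by clone it stood at 0.51 in F5 (adjusted p = 0.0437), 0.10 in G5 (adjusted p = 0.73) and 0.83 in H7 (adjusted p = 0.00289). With the 9 clone libraries as 1 group it was 0.51 with no call (adjusted p = 0.153). For the elastin-degrading proteases and the elastin receptor complex, edgeR called 0 of 5 and 0 of 3 genes in the mean of the clones. At an unadjusted p under 0.05 there were 2 higher and 1 lower protease and 0 receptor genes, and DESeq2 called 1 protease higher and 0 receptor genes. In single clones the counts were not the same: 3 of the 5 proteases were called higher in H7, where 9.64% of all genes tested were. Named after their values were seen, these were the cathepsins Ctsk (0.93, adjusted p = 0.00412) and Ctsl (0.81, adjusted p = 0.00404) and the gelatinase Mmp2 (0.32, adjusted p = 0.0293). Mmp2 was called lower in G5 (−0.36, adjusted p = 0.0244), and no protease was called in F5.

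Over the 12 libraries, the genes most like Eln in log2 CPM were Npnt (Pearson r = 0.975), Mest (0.972) and Kcnip3 (0.972). Mest had 0 CPM on average in the clones and 1.78 CPM in the parental line, and Npnt had 15.2 and 63.1 CPM. Those most like Loxl1 were Smad3 (0.968), Mrc2 (0.966) and Fbrsl1 (0.966), and those most like Lox were Copz2 (0.939), Rilpl2 (0.926) and Gm49342 (0.923). These were chosen among all genes tested for the likeness itself, over libraries that share their lines.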

How the data were processed

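The authors deposited estimated counts and TPM for 48795 Ensembl genes in 12 libraries. The deposited counts were not all whole: of those above 0.5, 86.9% were within 0.01 of an integer, and all were rounded here. The build is GRCm38, per the submitters' processing notes, with the aligner, the annotation and the use of strand not given in the sources used here. Symbols and positions are from GENCODE M21 (48435 identifiers matched). Library totals ran from 22088695 to 31329735 counts.

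Genes were kept by edgeR's filterByExpr, which left 14704. Differences were tested by edgeR's quasi-likelihood F-test with TMM factors on all 12 libraries and 4 groups (8 residual degrees of freedom), with Benjamini-Hochberg adjustment over all genes tested and a threshold of 0.05. SE were taken from the F statistic. Passages were tested with line and place in the order of passages as terms. Alternatives were DESeq2, limma on log2(TPM + 1) and log2(TPM + 0.1), other size factors, no filter, a replicate block, fewer libraries and counts summed per line; 2 were added after seeing the data. The tests were checked on simulated counts, where DESeq2 made more false calls than edgeR or limma. The 10 genes and all lists were chosen with earlier results of these data known. Genes named by rule were all 10, Aebp1, from each list up to 3 called genes with the lowest adjusted p, and the 3 most correlated with Eln, Lox and Loxl1. Named outside this rule were Loxl3, Efemp1, Atp7a, Atox1, Slc31a1, Ctsk, Ctsl and Mmp2, besides markers and genes near or overlapping the 10. The software was DESeq2 1.42.0, edgeR 4.0.16, limma 3.58.1 and R 4.3.3.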

Additional observations from a re-analysis of the deposited data

Results flagged for a closer look

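Efemp2 moved in opposite directions at the middle passage in the parental line and in clones F5 and G5, with H7 nearly level. In log2 of CPM, the middle passage against the mean of the first and the third stood at −0.24 in clone F5, −0.39 in clone G5 and −0.0515 in clone H7, against 0.28 in the parental line. The middle passage was the lowest of 3 in each clone and the highest of 3 in the parental line. In H7 it was nearly tied with the first passage, at 161.7 against 162.1 CPM. The difference between the lines was not tested, and each value rests on 3 libraries.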

How the results depend on the processing

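Under 23 alternatives (22 for a single clone, 3 for passages), called changes of single genes kept direction and call in 456 cases and lost the call with the same sign in 98. Uncalled values kept both in 430, gained a call in 29 and changed sign in 22, all of Mfap5 and Lox. Mfap5 in the mean of the clones turned to 0.19 and 0.21 in limma at the pseudocounts of 1 and 0.1 and to 0.22 without the 4 middle passages, and ran from −0.50 to 0.68 with 1 library left out; in F5 it turned to −0.091 with the replicate block by passage number and ran from −0.14 to 1.24 with 1 left out, and in G5 to −0.28 with that block and from −0.30 to 1.03. Lox turned to 0.14 in the mean, 0.0966 in F5 and 0.10 in G5 without the middle passages, and with 1 library left out ran from −0.29 to 0.15 in the mean, −0.36 to 0.0786 in F5, −0.35 to 0.0925 in G5 and −0.15 to 0.29 in H7, where it turned to −0.21 with the block by number and −0.20 with passages 7 and 8 only. The genes called lower in the mean, 5, became 3 without the middle passages or with passages 7 and 8 only, and 0 with counts summed per line, where 6 had an unadjusted p under 0.05 and edgeR called 0 of all genes tested. With the replicate block Fbn2 in the mean gained a call, at −2.08 by number and −1.31 by place (adjusted p = 0.0454 and 0.000767). In F5 the count of 3 was 5 by DESeq2, 6 with a replicate block by place in the order of passages, 1 in limma, 1 with only the groups compared, 1 without middle passages, 1 with passages 7 and 8 and 1 to 5 with 1 library left out. In G5 (3) it was 6 with that block, 1 with only the groups compared, 1 with passages 7 and 8 and 1 to 4 with 1 library left out, and in H7 (4) it was 7, 2 and 2. F5 against H7 (0) gave 1 by DESeq2, 2 with the block, 1 with only these groups, 1 without middle passages and 0 to 1 with 1 library left out; G5 against H7 (0) gave 2 with the block, 1 without middle passages and 0 to 1. The third passages gave 2 by DESeq2 and with no filter, and the 8 other pathway genes became 16 with the block, 0 with summed counts (5 at an unadjusted p under 0.05) and 2 with passages 7 and 8. The causes were not tested. Passage numbers do not pair the libraries: deviations of same-numbered libraries correlated between −0.53 and 0.50, above 0.1 in 9 of 15 pairs. Those at the same place in order correlated between 0.04 and 0.50, above 0.1 in 16 of 18 pairs. Depth limits Eln in the clones, with 0 to 3 counts a library.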
